A study of Mus musculus with 17 samples.

Results

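The 8 genes described are 4 ligands of the fibroblast growth factor (FGF) family, Fgf4, Fgf8, Fgf15 and Fgf17, and its 4 receptor tyrosine kinases, Fgfr1, Fgfr2, Fgfr3 and Fgfr4. They were taken by gene symbol from a table of 20621 genes, and all 8 passed the filter on low counts, which left 15365 genes for testing. RNA-seq read counts came from E14 mouse embryonic stem cells (mESCs) in 17 libraries. The cells were RNAPII-mut (genotype slow/slow, whose RNAPII the series title describes as elongating slowly, called mutant from here on) or WT. All groups grew without feeder cells on gelatine, in 10% serum and 1000 U/mL leukaemia inhibitory factor (LIF). To this medium 2i was added, which is 1 µM PD0325901, an inhibitor of MEK, together with 3 µM CHIR99021, an inhibitor of GSK3. Groups were the mutant and WT after 0, 1, 2 and 7 days of 2i, where day 0 is serum and LIF alone. There were 3 libraries for the mutant at day 1 and 2 for each of the other 7 groups. The labels do not say whether the libraries of a group came from separate cultures, or how many clones carry the mutation, so p-values measure the spread between these libraries and the mutation cannot be told apart from the line that carries it.

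FGF ligands are secreted proteins that bind their receptors together with heparan sulfate chains on the cell surface. The receptors then signal through FRS2, GRB2, RAS, RAF, MEK and ERK, and ERK induces its own inhibitors of the Sprouty, Spred and Dusp families. In mouse pluripotent cells FGF4 is the main ligand made by the cells themselves, and its signal through ERK is known to move them out of naive pluripotency and, in the blastocyst, towards primitive endoderm. PD0325901 blocks this cascade at MEK, below the receptors, so the transcripts described here encode the steps above the block.

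The regulatory sequences shown are those of Fgf4 and Fgfr2, a ligand whose libraries were mostly higher in 2i and a receptor whose level fell. RefSeq promoter windows (GRCm38.p6, 300 bases around a gene's start) were found for 4 of the 8 genes, Fgf4, Fgfr2, Fgfr3 and Fgfr4. The Fgf4 window lies at chr7:144861136-144861435 on the plus strand and the Fgfr2 window at chr7:130266759-130267058 on the minus strand. The annotations place the starts differently: in GENCODE M21, 1 of 2 Fgf4 transcripts starts inside the window and the other 13.77 kb upstream of it, and of 27 Fgfr2 transcripts none starts inside, the nearest start being 0.496 kb away. Capitals mark a GC box, spelled GGGCGG, on either strand. They also mark a CAAT box, which was searched as CCAAT on both strands. The last motif in capitals is a TATA run, for which both strands were searched with TATATA. The third sequence is a stretch of the Fgf4 3′ UTR at chr7:144864388-144864416 on the plus strand (GENCODE M21), which holds the paired SOX and octamer letters known from the Fgf4 enhancer, where SOX2 and OCT4 bind. Its capitals mark those 2 blocks.
Fgf4 promoter: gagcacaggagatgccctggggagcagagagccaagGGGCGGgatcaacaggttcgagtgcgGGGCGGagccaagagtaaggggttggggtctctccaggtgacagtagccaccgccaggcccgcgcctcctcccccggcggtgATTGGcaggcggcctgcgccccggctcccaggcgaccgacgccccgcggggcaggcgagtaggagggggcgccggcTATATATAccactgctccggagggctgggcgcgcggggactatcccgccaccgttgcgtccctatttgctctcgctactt
Fgfr2 promoter: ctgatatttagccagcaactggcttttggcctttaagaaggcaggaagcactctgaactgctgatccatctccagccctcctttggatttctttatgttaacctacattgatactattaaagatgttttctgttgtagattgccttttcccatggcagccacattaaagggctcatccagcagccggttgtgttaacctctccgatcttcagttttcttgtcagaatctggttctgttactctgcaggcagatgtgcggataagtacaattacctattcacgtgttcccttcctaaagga
Fgf4 SOX and octamer site: aaaactCTTTGTTtggATGCTAAtgggat
The Fgf4 window held 2 GC boxes, 1 CAAT box and 2 overlapping matches to the TATA run, and 69.7% of its bases were G or C. The Fgfr2 window held none of the 3 motifs, and 43.7% of its bases were G or C. Of 32851 RefSeq promoter windows of this length, 35.7% held the GC box, 37.4% the CAAT box and 5.67% the TATA run. The paired letters of the SOX and octamer site, CTTTGTTNNNATGCTAA on either strand, were found in annotated transcripts of 2 of 55450 genes, Fgf4 and Phf10. These matches describe letters, and no file used here measures binding.

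Library totals were 47350441 to 56138844 counts. Levels are given as counts scaled to library size (CPM) after TMM. A gene counts as called where its p in edgeR's quasi-likelihood test, adjusted by Benjamini-Hochberg over all 15365 genes, is under 0.05. Within a group, libraries correlated across genes at r of at least 0.986 in the mutant and 0.955 in WT, where genes are not independent replicates. The mESC label was checked against 10 pluripotent stem cell markers, whose summed level was 6891 to 10700 CPM in mutant libraries and 4915 to 10880 CPM in WT libraries, with Pou5f1 and Dppa5a among the most abundant. A pair of WT libraries, replicate 1 of day 0 and replicate 1 of day 1, stood apart through fibroblast and stromal markers, whose sum was 618 and 1061 CPM there, 168 CPM in WT day 2 replicate 1 and 20.4 to 50.2 CPM in the other 14. They are called the stromal pair. Trophoblast markers moved with them: 13 such markers summed to 682.5 and 1400 CPM in the pair, 490.1 CPM in WT day 2 replicate 1 and 101.3 to 313.8 CPM in the other 14. Primitive endoderm transcripts were higher in WT replicate 2 at every day: Gata6 was at 0.401 to 0.703 CPM in the mutant, 4.61 to 28.2 CPM in WT replicate 2 and 0.296 to 1.65 CPM in WT replicate 1. In such bulk samples, fewer cells of a type and less RNA per cell cannot be told apart.

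Per kilobase of exon, Fgf4 was the most abundant of the 8 genes in every group, at a mean of 62.6 to 123.5 CPM per kb in the mutant and 53.9 to 109.7 CPM per kb in WT. Fgfr1 was the most abundant receptor, at 11.75 to 14.5 CPM per kb in the mutant and 9.79 to 16.1 CPM per kb in WT. Fgfr3 was the least abundant receptor, at or below 0.153 CPM per kb in the mutant and 0.441 CPM per kb in WT. From day 0 to day 7 edgeR called Fgf15, Fgf17 and Fgfr2 lower in both genotypes, and Fgfr3 lower in WT. Of these, Fgf17 was above Fgfr1 at day 0, at a mean of 14.6 CPM per kb in the mutant and 13.9 CPM per kb in WT. Fgf17 fell to a lower level in WT and was the only 1 of the 8 that edgeR called between genotypes on average over the days.

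**Figure D1:**
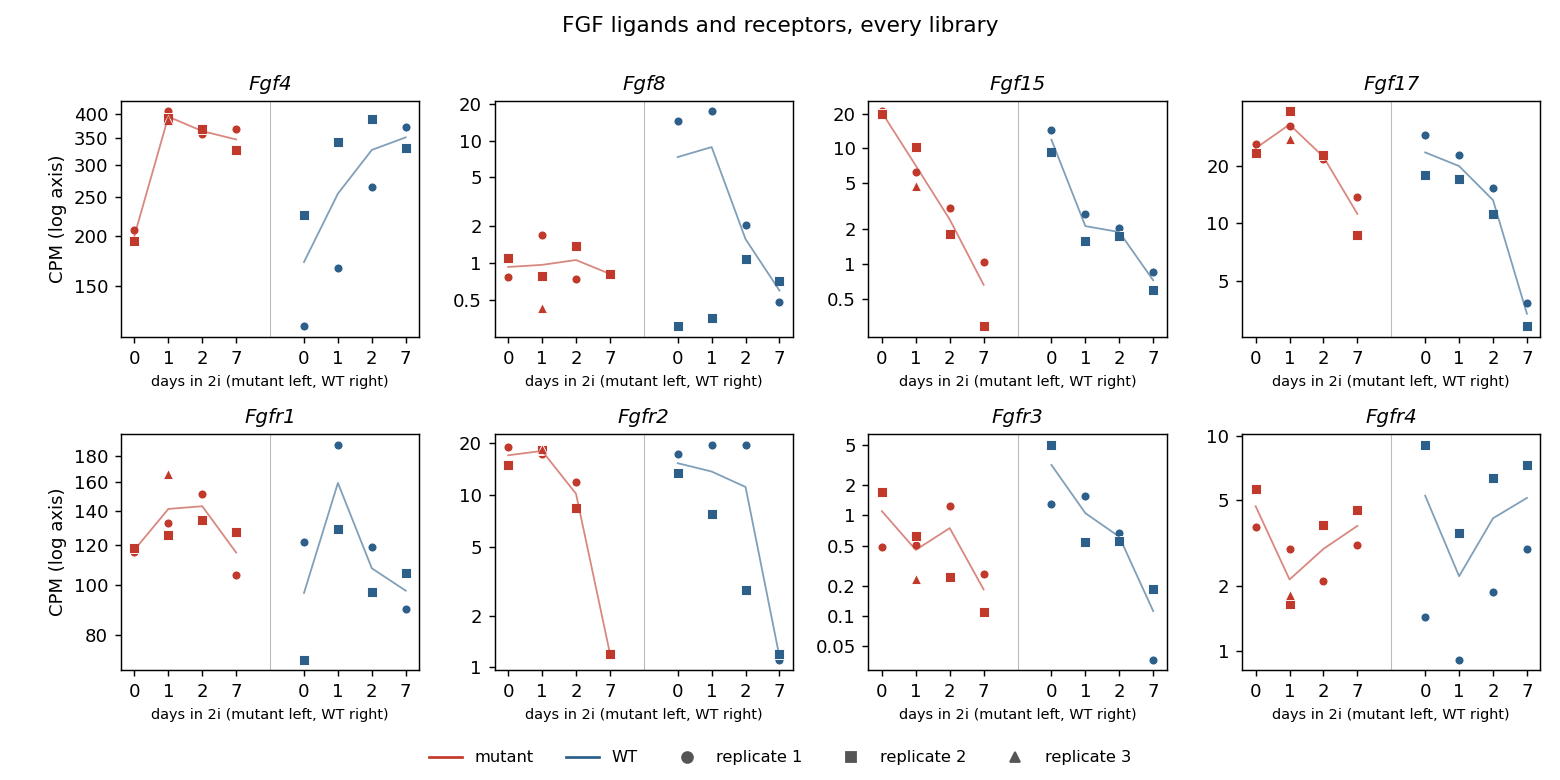
CPM of the 8 genes in every library on log axes, with days of 2i along the x axis (evenly spaced, not to scale), mutant libraries in red on the left and WT in blue on the right; marker shapes give the replicate and lines join group means. Fgf15, Fgf17 and Fgfr2 end lower at day 7 in both genotypes, Fgfr1 stays between 71.5 and 189 CPM, and Fgf8 is high in 2 WT libraries, both of replicate 1.

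After 7 days, 3 of the 8 genes had fallen in the mutant (Fgf15, Fgf17 and Fgfr2) and 4 in WT (these and Fgfr3) in edgeR's test, which called none as higher. Among all genes tested, 14.2% were called in this comparison in the mutant, 6.96% as lower, and 12.7% in WT, 6.1% as lower. DESeq2 called 4 of the 8 in the mutant, all lower (the same 3 and Fgfr3), and 6 in WT, 5 lower (the same 4 and Fgf8) and 1 higher (Fgf4), where it called 21.6% of all genes in the mutant and 21.1% in WT. The median log2 fold change of the 8 genes was -0.72 in the mutant, beside 0.00 over all genes, and -3.20 in WT, beside -0.01 over all genes. After 2 days, 1 of the 8 genes was called lower in each genotype, Fgf15, where 2.92% of all genes were called in the mutant, 1.21% as lower, and 2.16% in WT, 0.996% as lower. After 1 day none was called by edgeR in either genotype, where 1.41% of all genes were called in the mutant and 0.202% in WT. At an unadjusted p under 0.05 there were 2 in the mutant and 2 in WT at that day. The share of all genes under that unadjusted threshold was not counted, so these numbers have no background. DESeq2 called 2 in the mutant (Fgf4 and Fgf15) and 1 in WT (Fgf15), and of all genes 5.23% in the mutant and 2.13% in WT.

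**Figure D2:**
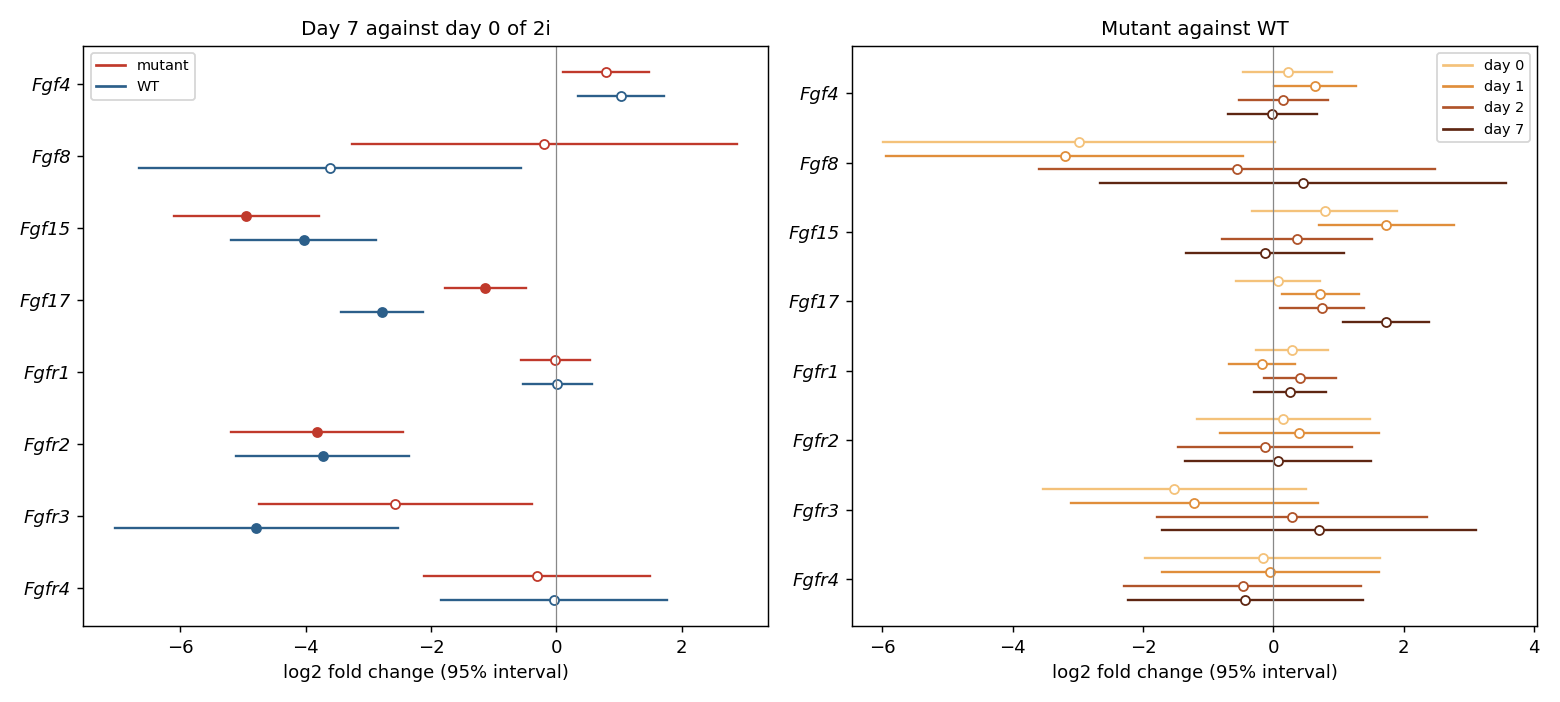
Log2 fold changes from edgeR with 95% intervals computed from its fit, on the left for day 7 over day 0 in the mutant (red) and WT (blue), on the right for mutant over WT at each day. Filled points are adjusted p under 0.05 in edgeR's quasi-likelihood test, which did not give the intervals. Fgf15, Fgf17 and Fgfr2 are filled in both genotypes and Fgfr3 in WT, no point is filled on the right, and the Fgf17 values there run upwards to 1.72 at day 7.

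Fgf4 is a secreted ligand of pluripotent cells and early embryonic signalling centres. Its level in the mutant was 206 and 194 CPM at day 0, 407, 390.5 and 386 CPM at day 1, 358 and 369 CPM at day 2, and 367 and 326 CPM at day 7. In WT it was 119 and 225 CPM at day 0, 167 and 342 CPM at day 1, 264 and 389 CPM at day 2, and 371.5 and 329.8 CPM at day 7. All mutant libraries in 2i were above both mutant libraries of day 0, and all WT libraries of days 2 and 7, but not of day 1, were above both of day 0. Groups that did not overlap in this direction were found for 19.5%, 25.3% and 34.6% of all genes at days 1, 2 and 7 in the mutant, and for 20% and 28% at days 2 and 7 in WT. The log2 fold changes did not pass the test: they were 0.98 (SE 0.29, adjusted p = 0.144), 0.86 (SE 0.32, adjusted p = 0.198) and 0.79 (SE 0.32, adjusted p = 0.119) at days 1, 2 and 7 in the mutant, and 0.56 (SE 0.32, adjusted p = 0.714), 0.92 (SE 0.32, adjusted p = 0.155) and 1.03 (SE 0.32, adjusted p = 0.0525) in WT. Same-numbered WT libraries deviated together, and within each WT number Fgf4 was higher in 2i at every day. The share of all genes with such an order was not counted. With a replicate block within WT, a term in the fit for the replicate number, the WT values were 0.55 at day 1 (adjusted p = 0.278), 0.96 at day 2, which passed (adjusted p = 0.0166), and 1.14 at day 7, which passed (adjusted p = 0.00253). In that fit the mutant values passed at day 1 (0.98, adjusted p = 0.0142), day 2 (0.86, adjusted p = 0.0261) and day 7 (0.79, adjusted p = 0.0175). The stromal pair had the lowest Fgf4 levels of the series, 119 and 167 CPM, and the lowest summed pluripotent stem cell markers, 4915 and 5406 CPM. That sum was 6891 and 7276 CPM in the mutant at day 0 and 10220 and 10700 CPM at day 7. In WT it was 7045 CPM in day 0 replicate 2, and 9732 and 10750 CPM at day 7. The part of pluripotent cells in the Fgf4 values, those of the stromal pair included, was not tested. With that pair left out, the rise of Fgf4 was called in the mutant at day 1 (0.98, adjusted p = 0.0114), day 2 (0.86, adjusted p = 0.0181) and day 7 (0.79, adjusted p = 0.0109), while the WT value at day 7 was 0.64 (adjusted p = 0.113). The WT value at day 7 did pass in DESeq2 (1.00, adjusted p = 0.0208), and without WT day 0 replicate 2 (1.56, adjusted p = 0.0228), either WT library of day 1 (1.03, adjusted p = 0.0188 and 0.0189) or either WT library of day 2 (1.03, adjusted p = 0.0456 and 0.0458).

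Fgf17 belongs to the same subfamily of ligands as Fgf8, and the 2 proteins prefer the same receptor isoforms. Mutant libraries had 26.0 and 23.2 CPM at day 0, 32.3, 38.3 and 27.6 CPM at day 1, 21.8 and 22.65 CPM at day 2, and 13.7 and 8.76 CPM at day 7. WT libraries had 28.9 and 17.9 CPM at day 0, 22.6 and 17.1 CPM at day 1, 15.3 and 11.2 CPM at day 2, and 3.87 and 2.92 CPM at day 7. In the mutant every library of day 1 was above both of day 0, as for 19.5% of all genes, and both of day 7 were below them, as for 34.2%. The genotypes overlapped at day 0, and at days 1, 2 and 7 every mutant library was above every WT library, a pattern shared by 12.7%, 14.6% and 21.1% of all genes. Fgf17 fell by day 7 in both genotypes, with a log2 fold change of -1.13 in the mutant (SE 0.30, adjusted p = 0.0253) and -2.79 in WT (SE 0.30, adjusted p = 0.000455). The mutant call was lost without mutant day 0 replicate 1 (-1.01, adjusted p = 0.180), mutant day 0 replicate 2 (-1.21, adjusted p = 0.0730) or mutant day 7 replicate 2 (-0.84, adjusted p = 0.2095). The WT call was lost with the compared groups alone in the fit (-2.81, adjusted p = 0.0538). With the replicate block within WT, Fgf17 was also called lower in WT at day 2 (-0.80, adjusted p = 0.0392).

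Between genotypes, Fgf17 was higher in the mutant on average over the 4 days, with a log2 fold change of 0.82 (SE 0.15, adjusted p = 0.00460), and it stayed called in 24 of 24 alternatives (0.73 to 0.97). It was the only 1 of the 8 genes called in this comparison, a share close to the background, since 12.8% of all genes were called and 5.35% as higher. The difference was 0.07 at day 0, 0.72 at day 1, 0.75 at day 2 and 1.72 at day 7 (SE 0.30, adjusted p = 0.0710 at day 7). At single days edgeR called 0 of the 8 genes, where 0.28%, 0.417%, 0.0716% and 0.0976% of all genes were called at days 0, 1, 2 and 7. At an unadjusted p under 0.05 there were 0, 3, 1 and 1 of the 8, for which the share of all genes was not counted. DESeq2 called 0, 1 (Fgf15), 0 and 1 (Fgf17), where it called 4.56%, 5%, 0.918% and 2.06% of all genes. The Fgf17 value at day 7 was called without the stromal pair (1.73, adjusted p = 0.0313), and also without WT day 0 replicate 1 (adjusted p = 0.0434) or WT day 0 replicate 2 (adjusted p = 0.0451) and with the replicate block within WT (1.74, adjusted p = 0.00411).

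The day 7 response of Fgf17 differed between mutant and WT by 1.65 on the log2 scale (SE 0.43, unadjusted edgeR quasi-likelihood p from the fit across all genes 0.00195, adjusted p = 0.459), which did not pass, and DESeq2 called it (adjusted p = 0.0478). For the difference in response edgeR called none of the 15365 genes at any day, the 8 genes included. At an unadjusted p under 0.05 there were 0, 0 and 1 of the 8 at days 1, 2 and 7, again without a counted share of all genes. DESeq2 called 0, 0 and 1, beside 0%, 0% and 0.475% of all genes. Summed neural markers were higher in every mutant than in every WT library at each day. At day 0, where Fgf17 differed by 0.07, they were at 241 and 249 CPM in the mutant and 224 and 170 CPM in WT. At day 7 they were at 129 and 172 CPM in the mutant and 91.2 and 80.0 CPM in WT. At that day 0 of 9 tested neural markers were called between genotypes, where 0.0976% of all genes were. On average over the days 2 of 9 were called higher in the mutant (Tubb3 and Elavl3), where 5.35% of all genes were, and none lower. Of the other lists, 10 of 18 primitive endoderm markers, 5 of 11 tested stromal markers and 5 of 12 tested trophoblast markers were called lower, where 7.49% of all genes were. Among the neural markers Neurog2 had 0 counts in both mutant libraries and 1 of the WT libraries of day 7. The part of these cell types in the Fgf17 difference was not tested.

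Fgf15, the mouse counterpart of human FGF19, is an endocrine ligand that acts with the co-receptor beta-Klotho. Its level in the mutant was 20.95 and 20.0 CPM at day 0, 6.24, 10.4 and 4.70 CPM at day 1, 3.05 and 1.82 CPM at day 2, and 1.04 and 0.291 CPM at day 7. The WT level was 14.35 and 9.41 CPM at day 0, 2.69 and 1.57 CPM at day 1, 2.03 and 1.75 CPM at day 2, and 0.851 and 0.599 CPM at day 7. In both genotypes every library in 2i was below both libraries of day 0, as for 20.7%, 25.1% and 34.2% of all genes at days 1, 2 and 7 in the mutant and 14.7%, 18.8% and 26.5% in WT. The log2 fold change at day 7 was -4.95 in the mutant (SE 0.54, adjusted p = 0.000428) and -4.03 in WT (SE 0.54, adjusted p = 0.00160), and both calls held in 25 of 25 alternatives. At day 2 it was -3.07 in the mutant (SE 0.52, adjusted p = 0.0130) and -2.65 in WT (SE 0.52, adjusted p = 0.0303). At day 1 it was -1.53 in the mutant (SE 0.47, adjusted p = 0.143) and -2.48 in WT (SE 0.52, adjusted p = 0.0995).

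The day 2 calls of Fgf15 needed every library of the groups compared. In the mutant the call was lost without any 1 of the 4 libraries of days 0 and 2, with adjusted p-values of 0.0586 to 0.145. In WT it was lost without any 1 of its 4 libraries of days 0 and 2 (0.0511 to 0.217) or either mutant library of day 0 (0.0520 and 0.0526), and without the stromal pair (-2.31, adjusted p = 0.0715). At days 0 and 1 every mutant library was above every WT library, which held for 23.6% and 12.7% of all genes in this direction. The difference of mutant minus WT was 0.79 at day 0 (SE 0.52, adjusted p = 0.560) and 1.73 at day 1 (SE 0.48, adjusted p = 0.142), and 0.69 on average (SE 0.26, adjusted p = 0.107), so none passed. With the replicate block within WT, the values that passed were mutant minus WT at day 1 (1.78, adjusted p = 0.0383) and on average (0.71, adjusted p = 0.0418), and day 1 over day 0 in the mutant (-1.53, adjusted p = 0.0421) and WT (-2.49, adjusted p = 0.0205). The average was called without mutant day 7 replicate 2 (0.85, adjusted p = 0.0442), the library with the lowest Fgf15 level of the series.

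Fgf15 is a neighbour of Fgf4 on chromosome 7, and Fgf3 lies on the other side of Fgf4. In GENCODE M21 (GRCm38) Fgf3 spans chr7:144838083-144844436, Fgf4 chr7:144847367-144865243 and Fgf15 chr7:144896531-144900953, all on the plus strand, with 2.93 kb between Fgf3 and Fgf4 and 31.3 kb between Fgf4 and Fgf15. Fgf3, another secreted FGF, had 6.63 and 6.70 CPM in the mutant at day 7, against 0.803 and 0.639 CPM in the mutant at day 0. In WT it had 10.2 and 10.3 CPM at day 7, against 1.11 and 3.94 CPM at day 0. It rose in both genotypes, with a log2 fold change of 3.21 in the mutant (SE 0.58, adjusted p = 0.00481) and 2.02 in WT (SE 0.57, adjusted p = 0.0399), while Fgf15 fell in both and Fgf4 was higher without passing. Part of the Fgf15 exons, 761 bases, lies opposite the antisense gene Gm26793, and since no strand setting is given, reads from the pair could not be told apart.

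**Figure D3:**
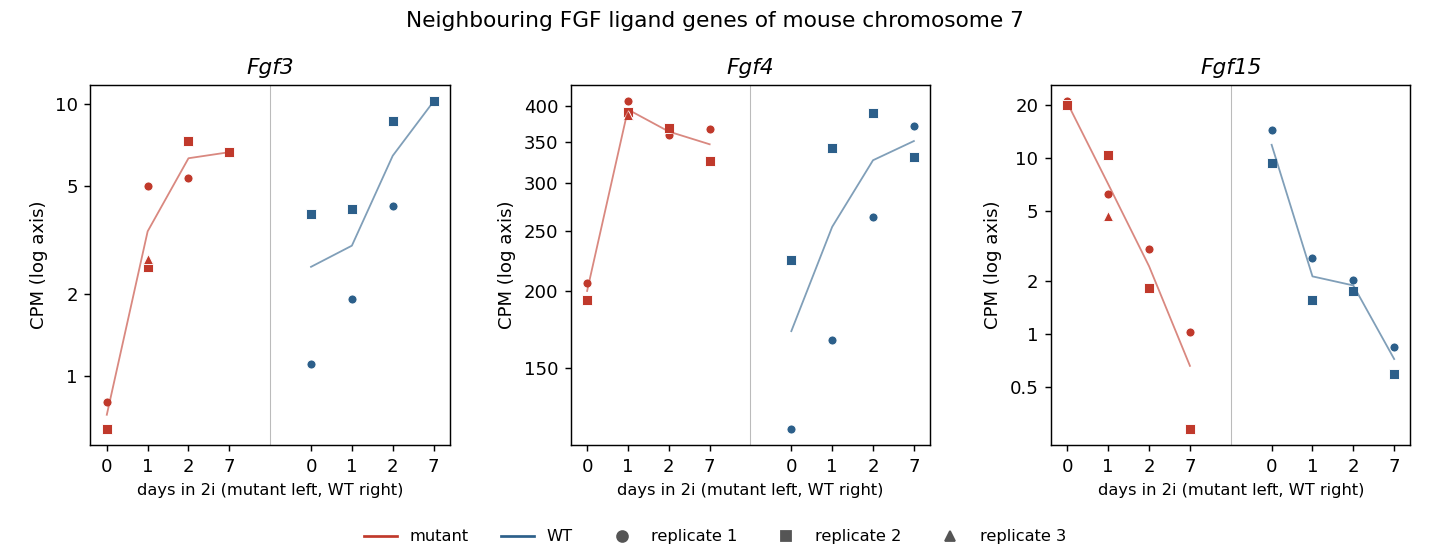
CPM on log axes of Fgf3, Fgf4 and Fgf15, in their order along chromosome 7, in every library by days of 2i (evenly spaced), mutant left in red and WT right in blue, with lines through group means. Fgf3 runs upwards to 6.63 to 10.3 CPM at day 7, Fgf4 sits at 326 to 371.5 CPM there, and Fgf15 runs downwards to 0.291 to 1.04 CPM.

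Fgf8 is a ligand of the primitive streak and of organiser regions in the embryo. Mutant libraries had 0.763 and 1.10 CPM at day 0, 1.69, 0.784 and 0.427 CPM at day 1, 0.742 and 1.38 CPM at day 2, and 0.813 and 0.818 CPM at day 7. WT libraries had 14.4 and 0.305 CPM at day 0, 17.4 and 0.353 CPM at day 1, 2.05 and 1.08 CPM at day 2, and 0.481 and 0.712 CPM at day 7. The 2 high values are the stromal pair, and the other 15 libraries lay between 0.305 and 2.05 CPM. No comparison of Fgf8 passed in edgeR's test: mutant minus WT was -2.98 at day 0 (SE 1.39, adjusted p = 0.425) and -3.20 at day 1 (SE 1.27, adjusted p = 0.277). Without the stromal pair these values were 1.60 (adjusted p = 0.472) and 1.44 (adjusted p = 0.520), so the direction rested on those libraries. Likewise WT day 7 over day 0 was -3.62 (SE 1.41, adjusted p = 0.137), which DESeq2 called (-3.66, adjusted p = 0.0243), and without the stromal pair it was 0.96 (adjusted p = 0.537).

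Besides stromal and trophoblast markers, the stromal pair carried primitive streak and mesoderm transcripts, though a high sum of these markers was not particular to it. T (Brachyury), a regulator of mesoderm, was at 113 and 91.5 CPM in the pair and at 0.203 to 34.7 CPM in the other 15 libraries. The 17 streak and mesoderm markers summed to 27.8 to 35.2 CPM in the mutant at day 0, against 291 CPM in WT replicate 1 and 22.9 CPM in WT replicate 2. At day 1 the sum was 174 to 326 CPM in the mutant and 371 and 206 CPM in WT. At day 2 it was 230 and 384 CPM in the mutant, the latter above both libraries of the pair, and 165 and 164 CPM in WT. At day 7 it was 345 and 158 CPM in WT and 251 to 291 CPM in the mutant, where Fgf8 was at 0.813 and 0.818 CPM. Of 14 stromal markers Fap had 0 counts in every library and Lum in 15 of 17. The part of these cells in the Fgf8 values was not tested.

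Per length, Fgf4 made up 73.9 to 74.2% of the sum of the 4 ligands in the mutant at day 0 and 53.5 to 83.5% in WT. At day 7 its share was 92.7 to 94.5% in the mutant and 97.6 to 97.7% in WT. The share of Fgf17 was 16.8 to 17.6% in the mutant and 12.6 to 24.5% in WT at day 0, and 4.81 to 6.54% in the mutant and 1.64 to 1.92% in WT at day 7. Fgf15 went down to a share of 0.0882 to 0.273% in the mutant at day 7, against 7.84 to 8.003% at day 0, and to 0.186 to 0.233% in WT, against 3.65 to 6.72% at day 0. The summed level of the 4 ligands was 107.8 to 124.0 CPM per kb in the mutant and 105.7 to 119 CPM per kb in WT at day 7. At day 7 the genotypes overlapped in the summed level and in the CPM of Fgf4. They did not overlap in the shares of Fgf4 and Fgf17. The shares are parts of the same sum, so the lower Fgf4 share of the mutant is no result separate from its higher Fgf17 share. In CPM 21.1% of all genes were, like Fgf17, higher in the mutant without overlap at that day.

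**Figure D4:**
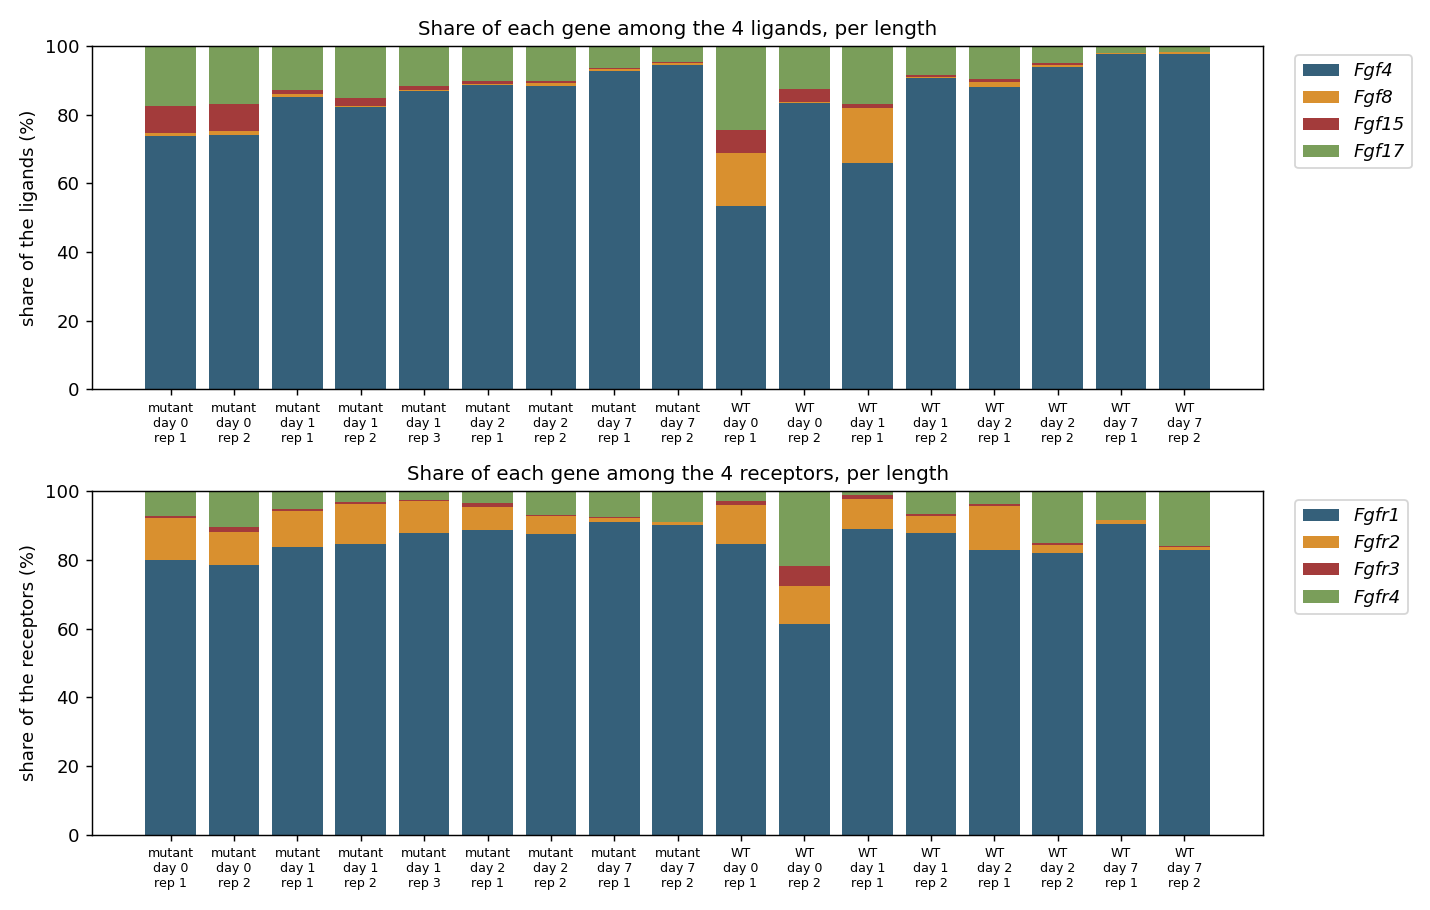
Stacked bars of the share in percent of each gene in the sum of the 4 ligands (top) and of the 4 receptors (bottom) in each library, on the scale of CPM per kilobase of exon, with mutant libraries left and WT right. Fgf4 and Fgfr1 hold most of each bar, Fgf8 is visible at 15.2 and 16.2% in the stromal pair, and Fgfr2 shrinks to between 0.813 and 1.07% at day 7.

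Fgfr1 is the main FGF receptor of mESCs, and its level stayed within 71.5 to 189 CPM. Its level in the mutant was 116 and 119 CPM at day 0, 132, 126 and 166 CPM at day 1, 151.5 and 135 CPM at day 2, and 105 and 127 CPM at day 7. In WT it was 122 and 71.5 CPM at day 0, 189 and 129 CPM at day 1, 119 and 97.2 CPM at day 2, and 89.7 and 105.6 CPM at day 7. None of the 14 comparisons of Fgfr1 passed. The day 7 log2 fold change had a 95% interval of -0.57 to 0.54 in the mutant (value -0.02) and -0.54 to 0.57 in WT (value 0.01). Mutant minus WT was 0.19 on average (SE 0.13, adjusted p = 0.360), and without the stromal pair 0.38, which passed (adjusted p = 0.0377).

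Fgfr2 binds FGFs with an isoform for epithelial and one for mesenchymal cells, and in the blastocyst it marks the cells that become primitive endoderm. Its level in the mutant was 19.0 and 15.1 CPM at day 0, 17.3, 18.3 and 18.6 CPM at day 1, 11.99 and 8.41 CPM at day 2, and 1.22 and 1.20 CPM at day 7. In WT it was 17.3 and 13.4 CPM at day 0, 19.6 and 7.81 CPM at day 1, 19.5 and 2.80 CPM at day 2, and 1.11 and 1.20 CPM at day 7. The genotypes overlapped at day 0, all 4 libraries of day 7 lay between 1.11 and 1.22 CPM, and WT replicates 1 and 2 lay far apart at days 1 and 2, replicate 1 being higher. Fgfr2 fell by day 7 with a log2 fold change of -3.81 in the mutant (SE 0.64, adjusted p = 0.00351) and -3.73 in WT (SE 0.64, adjusted p = 0.00570). The mutant call held in 25 of 25 alternatives, and the WT call was lost without WT day 7 replicate 1 (-3.68, adjusted p = 0.0512).

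At day 2 the Fgfr2 change was -0.74 in the mutant (SE 0.62, adjusted p = 0.692) and -0.46 in WT (SE 0.62, adjusted p = 0.739), and neither passed. Without WT day 2 replicate 1, where Fgfr2 was at 19.5 CPM and the stromal markers summed to 168 CPM, the WT value was -2.45 and passed (adjusted p = 0.0366). The difference in the day 7 response between mutant and WT was -0.08 (SE 0.90, adjusted p = 0.980), with a 95% interval of -2.03 to 1.86. In the annotation Fgfr2 shares 314 exonic bases with Ctbp2 on the same strand, through 1 long transcript, and reads there could belong to either gene.

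Fgfr3, a receptor best known from cartilage and bone growth, was low throughout. At day 7 the mutant libraries held 14 and 6 Fgfr3 counts and the WT libraries 2 and 10. Fold changes at that day are therefore uncertain in size. The mutant level was 0.482 and 1.72 CPM at day 0, 0.508, 0.619 and 0.233 CPM at day 1, 1.25 and 0.243 CPM at day 2, and 0.259 and 0.109 CPM at day 7. The WT level was 1.31 and 5.01 CPM at day 0, 1.55 and 0.549 CPM at day 1, 0.665 and 0.560 CPM at day 2, and 0.0370 and 0.187 CPM at day 7. Both libraries of day 7 were below both of day 0 in each genotype, as for 34.2% of all genes in the mutant and 26.5% in WT. The log2 fold change was -2.57 in the mutant (SE 1.01, adjusted p = 0.117), which did not pass in edgeR's test, and -4.79 in WT (SE 1.05, adjusted p = 0.0164). The mutant value passed in DESeq2 (-2.60, adjusted p = 0.0476) and with the compared groups alone in the fit (-2.56, adjusted p = 0.00696). The WT call was lost without WT day 0 replicate 2, the highest library (-3.52, adjusted p = 0.0710), and without WT day 7 replicate 1, the lowest (-4.06, adjusted p = 0.107), as well as with the compared groups alone in the fit (-4.80, adjusted p = 0.100). The difference of the responses was 2.22 (SE 1.45, adjusted p = 0.676), so the genotypes were not shown to differ. In the annotation 998 exonic bases of Fgfr3 lie opposite G630022F23Rik, and here too reads could not be told apart by strand.

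Fgfr4, the receptor that FGF19 and Fgf15 use in liver, differed between the WT replicates at every day. Its level in the mutant was 3.77 and 5.62 CPM at day 0, 2.96, 1.65 and 1.83 CPM at day 1, 2.11 and 3.84 CPM at day 2, and 3.10 and 4.51 CPM at day 7. In WT it was 1.44 and 9.07 CPM at day 0, 0.909 and 3.53 CPM at day 1, 1.88 and 6.38 CPM at day 2, and 2.96 and 7.31 CPM at day 7. WT replicate 2 was above WT replicate 1 at each of the 4 days, and the mutant libraries lay between 1.65 and 5.62 CPM. Same-numbered WT libraries deviated together across genes, and the share of all genes with this order at all 4 days was not counted. None of the 14 comparisons passed, and mutant minus WT was -0.28 on average (SE 0.41, adjusted p = 0.721).

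The 18 primitive endoderm markers summed to 1149 to 2476 CPM in the mutant. At days 0, 1, 2 and 7 the sum was 2147, 2545, 3361 and 3123 CPM in WT replicate 2 and 1066, 1357, 1479 and 1485 CPM in WT replicate 1. Apoe, an apolipoprotein, was the most abundant of the 18 at a mean of 1245 CPM over all libraries. Sox17, a regulator of endoderm, was at 0.0462 to 0.768 CPM in the mutant, against 8.73 to 13.3 CPM in WT replicate 2 and 0.202 to 0.509 CPM in WT replicate 1. Ttr, a marker of later visceral endoderm, had 0 counts in 7 of the 17 libraries. The part of these cells in the Fgfr4 values was not tested.

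**Figure D5:**
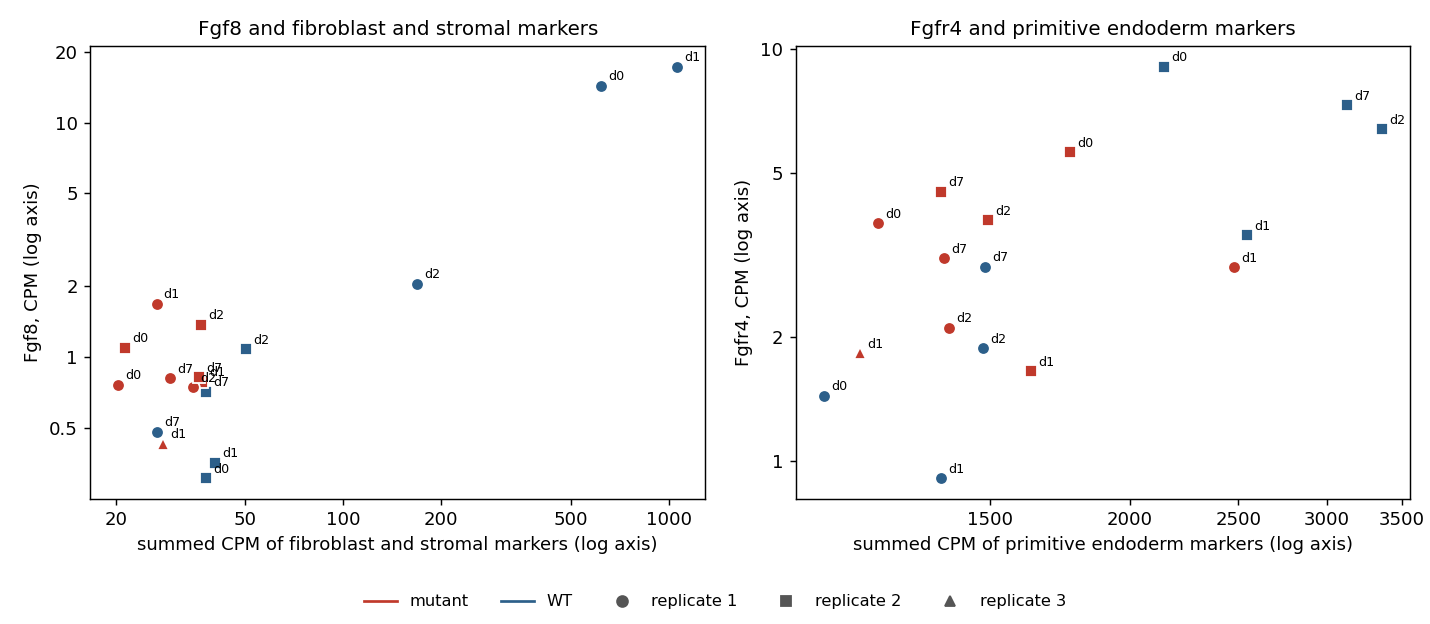
CPM of Fgf8 against the summed CPM of fibroblast and stromal markers (left), and of Fgfr4 against the summed CPM of primitive endoderm markers (right), 1 point per library on log axes, labelled by day, mutant in red and WT in blue, with marker shape for the replicate. The stromal pair stands alone at the upper right for Fgf8 (14.4 and 17.4 CPM), and 3 of the 4 libraries of WT replicate 2 lie highest for Fgfr4 (6.38 to 9.07 CPM).

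Per length, Fgfr1 made up 78.5 to 91.2% of the sum of the 4 receptors in the mutant libraries and 61.4 to 90.6% in the WT libraries. The share of Fgfr2 was 0.813 to 1.01% in the mutant at day 7, against 9.53 to 12.5% at day 0, and 0.900 to 1.07% in WT at day 7, against 11.02 to 11.4% at day 0. Fgfr4 was then the second receptor, at 7.52 to 8.91% in the mutant and 8.32 to 15.99% in WT at day 7. In WT at day 0 its share was 2.79% in replicate 1 and 21.7% in replicate 2.

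Likeness between genes was described by Pearson's r of log2(CPM + 1) over the 17 libraries, which share days, genotypes and replicate series. Among the 8 genes the highest value was 0.852 for Fgf17 and Fgfr2, followed by 0.754 for Fgf15 and Fgfr2 and 0.708 for Fgf15 and Fgf17, the 3 genes that fell in both genotypes. By Spearman's rho, which uses ranks, the order of these 3 pairs was the opposite. It was 0.843 for Fgf15 and Fgf17, 0.725 for Fgf15 and Fgfr2 and 0.721 for Fgf17 and Fgfr2. The lowest r was -0.715 for Fgfr1 and Fgfr4. Over all genes of at least 5 CPM in some group, Fgf15 was most like Chrna9 (0.953), Park2 (0.951) and Pdzd4 (0.950), Fgf17 most like Elovl4 (0.942), D1Ertd622e (0.922) and Id1 (0.920), and Fgfr2 most like Ina (0.955), Dlg4 (0.953) and Adcy1 (0.952). Fgf4 was most like Lap3 (0.949), Glb1 (0.912) and Sap30 (0.909). Fgfr1 was most like Fam171a1 (0.837), Whsc1 (0.834) and Actr1b (0.816), Fgfr3 most like Nrg1 (0.864), Klf12 (0.835) and Fam126a (0.830), and Fgfr4 most like Aim1l (0.947), Ciart (0.937) and Rapgef3 (0.929). Fgf8 was most like Scarf2 (0.965), Cav1 (0.964) and Nbl1 (0.959), and without the stromal pair these values were 0.659, 0.571 and 0.635.

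The counts of the lists that follow stand beside 7.2% of all genes called higher and 6.96% lower at day 7 in the mutant, 6.62% higher and 6.1% lower in WT, and 5.35% higher and 7.49% lower for mutant minus WT on average. Of 18 other FGF ligands, 13 were tested. At day 7, 2 were called higher in the mutant (Fgf3 and Fgf10) and 3 lower (Fgf1, Fgf5 and Fgf18), and in WT 1 was called higher (Fgf3) and 4 lower (Fgf1, Fgf5, Fgf13 and Fgf18). The median log2 fold change of the list was -1.24 in the mutant and 0.37 in WT. Fgf10, a ligand of limb and lung buds, had 7.07 CPM in the mutant at day 7, against 1.34 CPM at day 0 (log2 fold change 2.40, SE 0.52, adjusted p = 0.0107), and on average it was lower in the mutant, at 4.07 CPM, than in WT, at 7.03 CPM (-0.93, SE 0.25, adjusted p = 0.0299). Fgf5, a ligand of the primed epiblast, had 2.01 and 1.99 CPM in the mutant and 16.95 and 0.305 CPM in WT at day 0, the highest value being in the stromal pair, and 0 counts in all 4 libraries of day 7. Fgf13, an intracellular member of the family, fell in WT (-2.71, SE 0.65, adjusted p = 0.0222).

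Of 18 co-receptors and membrane modulators, 17 were tested. At day 7 the mutant had 4 called higher and 1 lower, and WT had none called, which is no test of a difference between them: the difference in response was called for none of the 17. The list's median log2 fold change was 0.09 in the mutant and -0.08 in WT. Flrt2, a membrane protein of the family that binds FGF receptors, had 8.01 CPM in the mutant at day 7, against 0.843 CPM at day 0 (log2 fold change 3.24, SE 0.46, adjusted p = 0.00116). The heparan sulfate proteoglycans Sdc3 (2.18, SE 0.54, adjusted p = 0.0218) and Gpc4 (1.57, SE 0.37, adjusted p = 0.0150) rose in the mutant, and Gpc1 fell (-1.45, SE 0.37, adjusted p = 0.0215). On average 4 of 17, beside 7.49% of all genes, were lower in the mutant than in WT and none higher, among them Flrt3 at 3.51 CPM in the mutant and 7.89 CPM in WT (-1.13, SE 0.20, adjusted p = 0.00400) and Gpc4 at 26.8 CPM and 38.2 CPM (-0.62, SE 0.18, adjusted p = 0.0400).

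Of 17 genes of heparan sulfate synthesis and editing, 15 were tested, and at day 7 the same 3 were called in each genotype. The sulfotransferase gene Hs6st1 rose to 240.4 CPM in the mutant, against 84.5 CPM at day 0 (log2 fold change 1.51, SE 0.18, adjusted p = 0.000351), and to 213 CPM in WT, against 83.3 CPM (1.35, SE 0.18, adjusted p = 0.00101). Of the pair that builds the chain, Ext2 rose in the mutant (0.86, SE 0.17, adjusted p = 0.00479) and WT (0.84, SE 0.17, adjusted p = 0.00745), and Ext1 fell in the mutant (-1.46, SE 0.31, adjusted p = 0.00920) and WT (-1.89, SE 0.31, adjusted p = 0.00368). The list's median was 0.33 in the mutant and 0.01 in WT.

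All 25 receptor adaptors and members of the ERK cascade were tested. At day 7, where 14.2% of all genes were called in the mutant and 12.7% in WT, 1 rose in the mutant, Ksr1, a scaffold of the cascade (1.67, SE 0.39, adjusted p = 0.0140), while in WT the adaptor Frs3 rose (1.22, SE 0.26, adjusted p = 0.0103) and Nras fell (-0.73, SE 0.22, adjusted p = 0.0441). On average Frs3 was higher in the mutant, at 16.2 CPM, than in WT, at 12.6 CPM (0.43, SE 0.13, adjusted p = 0.0427), and the adaptor Shc1 was lower, at 107.0 CPM in the mutant and 134 CPM in WT (-0.32, SE 0.08, adjusted p = 0.0248). The list's summed level was 2258 to 2716 CPM in mutant libraries and 2266 to 2718 CPM in WT libraries, and its median log2 fold change at day 7 was 0.06 in the mutant and -0.16 in WT.

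Of 16 ERK feedback and ETS target genes, all tested, 10 were lower at day 7 in each genotype, beside 6.96% of all genes in the mutant and 6.1% in WT, and none was higher, with a median log2 fold change of -2.42 in the mutant and -1.75 in WT. The same 10 were called in both: Dusp4, Dusp5, Dusp6, Etv4, Fosl1, Myc, Spred1, Spred3, Spry1 and Spry4. Spry4, a feedback inhibitor of the pathway, had 1.11 and 1.27 CPM in the mutant at day 7, against 236 and 276 CPM at day 0, and 1.18 and 1.16 CPM in WT at day 7, against 105 and 303 CPM at day 0. Its log2 fold change was -7.75 in the mutant (SE 0.96, adjusted p = 0.00147) and -7.44 in WT (SE 0.96, adjusted p = 0.00296). At day 1 Spry4 was already at 0.277, 10.4 and 3.96 CPM in the mutant and 2.29 and 3.49 CPM in WT, when Fgfr2 was at 17.3, 18.3 and 18.6 CPM in the mutant and 19.6 and 7.81 CPM in WT. On average Dusp5 (-1.52, SE 0.30, adjusted p = 0.00766) and Spred3 (-0.84, SE 0.23, adjusted p = 0.0291) were lower in the mutant than in WT. Of 10 formative and primed markers, 6 fell by day 7 in the mutant and 6 in WT, and the part of this change of pluripotency state in the fall of Fgf15, Fgf17 and Fgfr2 was not tested.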

How the data were processed

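The authors deposited whole-number read counts per gene for all 17 libraries in 1 table, with gene symbols as identifiers, and 0 sample columns were left unused. Per the submitters' processing notes, STAR, deepTools and the mm10 build were used. The counting tool, annotation, strand setting, treatment of read mates and of multi-mapping reads are not given in the sources used here. In each library 71.5 to 76.4% of the counts above 0 were even numbers. Whether mates were counted singly was not tested.

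From the counts, edgeR 4.0.16 (R 4.3.3, limma 3.58.1) was run with TMM scaling and filterByExpr on the 8 groups (15365 of 20621 genes kept). A quasi-likelihood fit took 1 coefficient per group over all 17 libraries (biological coefficient of variation 0.333, 9 residual degrees of freedom), with 14 two-sided contrasts, each adjusted by Benjamini-Hochberg over all genes tested. A group left with 1 library after an omission was assumed to have the spread of the remaining groups. Alternatives were DESeq2 1.42.0, its size factors in edgeR, a fit of the compared groups alone, no filter, a stricter filter (at least 4 libraries at 1 CPM), replicate number as a block, a block within WT, leaving out the stromal pair, and leaving out each library. The code was tested on simulated data. Totals limit precision: a gene with 3 counts over a library is near the floor, and depth gives no interval for differences between cultures.

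All 8 genes are named in every comparison. Of each pathway list, counts are given with up to 4 called genes of largest fold change and at least 5 CPM in the higher group. For likeness the 3 genes of highest r are named, predicted genes left out. Fgf3, Fgf5, Spry4 at day 1 and single marker genes were chosen after their values were seen. The members, lists, stromal pair and tests were chosen with earlier results of these data known.

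Replicate numbers come from the sample titles. Deviations of same-numbered libraries from their group means correlated over 0.1 in 2 of 6 pairs of days in the mutant (r = -0.641 to 0.278), 6 of 6 in WT (0.262 to 0.76) and 10 of 16 between genotypes (-0.579 to 0.706). The negative values between genotypes were all those of mutant day 1. The numbers were taken as pairs among the WT days only, where every pair was over 0.1. That choice came from the correlations in these same data and not the labels, and a pairing across genotypes is not excluded. Calls with the block within WT rest on that choice. Each WT group has only 2 numbers, and the stromal pair holds number 1 at days 0 and 1. The fit with a block within WT is given beside results whose call it changes. Positions and exon lengths are from GENCODE M21 (GRCm38), promoter windows from RefSeq (GRCm38.p6). The exon length of a gene is the union of the exons of all its annotated transcripts. Levels and shares per kb depend on that choice, since the transcripts in use were not measured.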

Additional observations from a re-analysis of the deposited data

How the results depend on the processing

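Of 2792 recomputed fold changes of the 8 genes, 2730 stayed on their side of the threshold, 42 came to pass it, 20 ceased to pass it, and no called value turned its direction. Counts of members called moved as follows, and the cause was not tested. DESeq2, which called 0.475 to 19.7% of all genes in these comparisons, called 1 for mutant minus WT at day 1, 1 at day 7 and 2 on average, 1 for WT day 1 over day 0, 2 for mutant day 1 over day 0, and at day 7 1 for the difference between the responses. When the fit held the compared groups alone, which leaves fewer libraries to estimate the spread, WT had 0 at day 2 and 2 at day 7, and the mutant 2 at day 1, 2 at day 2 and 5 at day 7, where that fit called 0% and 0.906% of all genes in WT and 7.54%, 12.3% and 38.8% in the mutant. Leaving out the stromal pair leaves 1 WT library at day 0 and 1 at day 1, so effect sizes are given for that fit. The Fgf17 value of mutant minus WT was then 1.73 at day 7 and 0.97 on average. Fgf15 was at -2.31 for WT day 2 over day 0, and Fgf4 at 0.98 and 0.86 for mutant days 1 and 2 over day 0.

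With the replicate number as a block over all libraries, mutant day 1 replicate 3 had a term of its own and so dropped out. Mutant minus WT on average then had 2 (Fgf15 and Fgf17), where 13.8% of all genes were called, and Fgf4 in WT at day 7 passed (1.07, adjusted p = 0.0353). With a replicate block within WT, mutant minus WT had 1 at day 1, 1 at day 7 and 2 on average, WT had 1 at day 1 and 3 at day 2, and the mutant had 2 at day 1 and 2 at day 2, with 1.24 to 22% of all genes called in these comparisons. Besides the calls given with the results, the block within WT changed no call of the 8 genes.

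Leaving out a library leaves 1 in its group, except for the mutant at day 1, so effect sizes are given. Over these fits Fgf17 was at 1.37 to 2.01 for mutant minus WT at day 7 and 0.73 to 0.91 on average. For day 7 over day 0, Fgf15 was at -6.13 to -4.30 in the mutant and -4.30 to -3.69 in WT. Fgfr2 was at -3.97 to -3.60 in the mutant and -3.90 to -3.54 in WT. DESeq2's size factors in edgeR, no filter and the stricter filter moved no count beyond 1.5 times. Likeness fell without the stromal pair to 0.773 for Fgf4 and Glb1 and 0.801 for Fgf4 and Sap30. The low levels of Fgf8 and Fgfr3 limit what these libraries show about them.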
